A study of Sus scrofa with 5 samples.

Results

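Genes that mark blood and lymph vessel endothelium were followed in pig (Sus scrofa) ovarian follicles of the Indian Ghoongroo breed, all from females. RNA of 3 large follicle libraries was compared with RNA of 2 small follicle libraries, and the labels name no other treatment, genotype or age. They call the libraries biological replicates but state neither diameters, nor follicles per library, nor whether each came from its own animal, so p-values measure the spread between these libraries only. The genes are 34 symbols of known endothelial markers, chosen by name but with earlier results of these data known. Of these, 33 were found among the 30822 listed genes. TIE2 was not found under that symbol and is given below as TEK, the official symbol. All 33 reached at least 1 FPKM (fragments scaled to gene length and library size) in every library, so none depended on the group with the higher level to pass the filter of 1 FPKM in at least 2 libraries.

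Endothelial cells line blood and lymph vessels. They are held together by cadherin, claudin and immunoglobulin-like adhesion molecules, and their identity is kept by ETS, SOX, GATA and basic helix-loop-helix transcription factors. In the ovary the capillaries of a growing follicle run in the theca layer outside the basement membrane, and the granulosa layer inside it has no vessels until ovulation. A follicle library therefore holds RNA of theca, vessel, immune and granulosa cells together, and fewer cells of a type cannot be told apart from less RNA per cell.

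The 5 libraries held 9523739 to 11507527 fragments, worked back from the FPKM steps, and 11784 to 13064 genes at 1 FPKM or more. The member with the fewest fragments in a library had 38 and the one with the most had 7255. Large follicle replicate 2 and small follicle replicate 1 had the lower values of most genes within their groups: replicate 2 was the lowest large library for 62% of all 13087 genes tested, and small follicle replicate 1 lay under replicate 2 for 79.6%. Both cell layers of the follicle were present in every library. The 9 theca genes summed to 2089, 4446 and 2315 FPKM in large libraries and 1239 and 950.5 FPKM in small libraries, without overlap, and the 10 granulosa genes to 5400.4, 13909 and 7965 FPKM in large libraries and 4053 and 5679 FPKM in small libraries, with overlap. Most of the granulosa sum was INHA, at 4474, 11739 and 6453 FPKM in large and 2876 and 3515 FPKM in small libraries. By gene, 4 granulosa genes were higher and 6 lower in large follicles, and 7 theca genes were higher and 2 lower. In the test described below, INHBB of the granulosa list was called lower and CYP17A1 of the theca list higher. Of all genes tested 0.443% were called lower and 0.535% higher. The part of the theca and granulosa layers in the endothelial values was not tested.

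The endothelial genes covered a wide range, from 1.02 to 240 FPKM in single libraries. RAMP2, the accessory subunit that turns the calcitonin receptor-like receptor CALCRL into an adrenomedullin receptor, had the highest mean at 151 FPKM over the 5 libraries. ENG, a co-receptor for TGF-beta family ligands, followed at 106 FPKM, then EGFL7, a secreted vessel protein, at 88.1 FPKM and the tight junction protein CLDN5 at 80.05 FPKM. CD34, a sialomucin of capillary endothelium and blood progenitors, averaged 75.6 FPKM and VWF, the platelet-binding glycoprotein stored in endothelial granules, 70.4 FPKM. These 6 genes averaged at least 50 FPKM. At the low end 7 members averaged under 5 FPKM, namely MMRN2, MYCT1, CALCRL, GATA2, TAL1, SOX7 and PROX1, of which PROX1, the transcription factor that sets lymphatic identity, was lowest at 1.49 FPKM. Neighbours in this order, such as CLDN5 and CD34, differed by less than their spread over libraries.

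**Figure D1:**
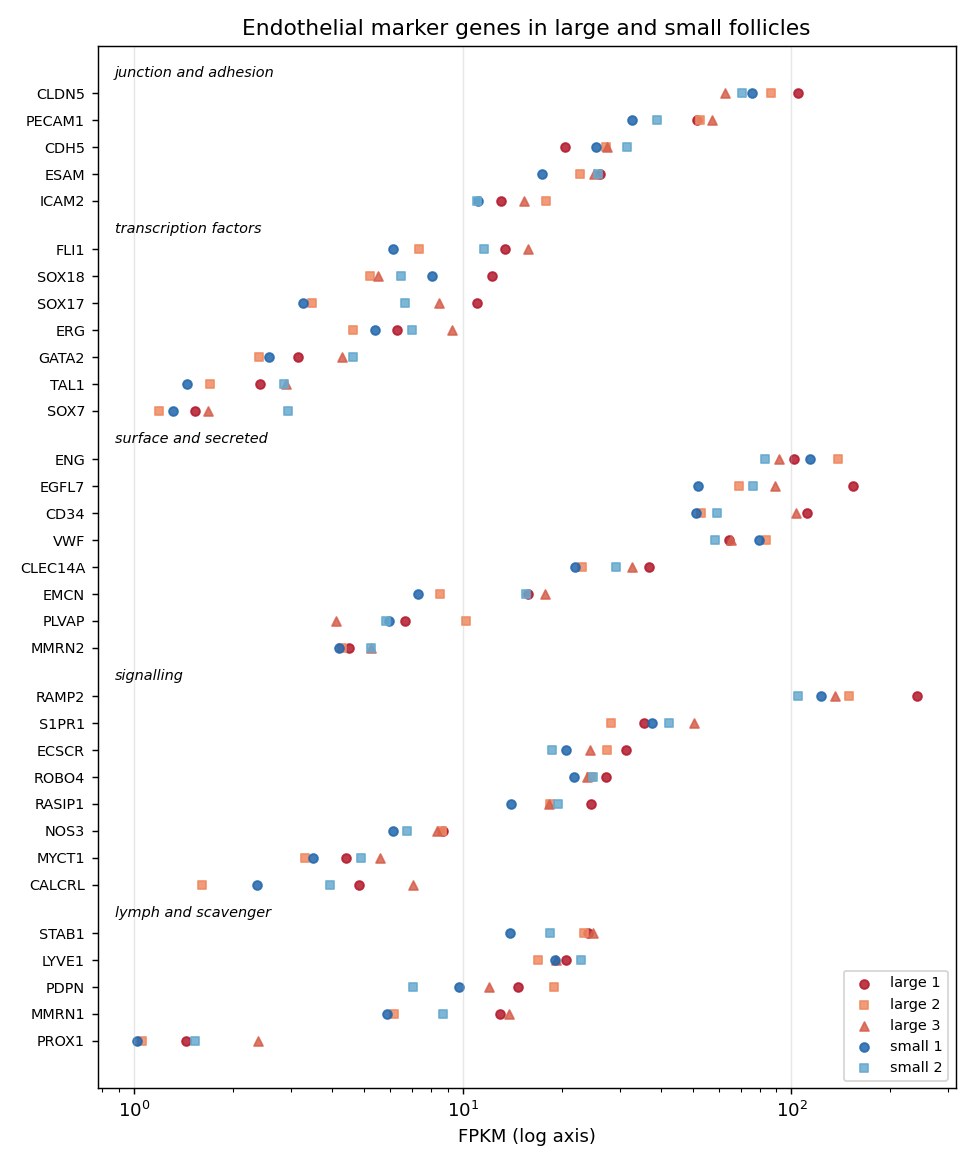
FPKM (log axis) of the 33 endothelial genes, 1 row per gene, grouped by role and sorted by mean level; red symbols are the 3 large follicle libraries and blue symbols the 2 small follicle libraries. RAMP2 lies highest and PROX1 lowest, and in most rows the red and blue symbols interleave.

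None of the 33 markers passed the test between large and small follicles. Limma's moderated test (two-sided) was run on log2(FPKM + 1) over the 13087 genes with 1 FPKM or more in at least 2 libraries, and a gene was called at a Benjamini-Hochberg adjusted p under 0.05. It called 0 of the 33 members, where 0.978% of all genes tested were called, 0.535% higher and 0.443% lower. At an unadjusted p under 0.05 limma gave 3 members, PECAM1, PDPN and STAB1, all higher, and 0 lower, where 4.76% of all genes were higher and 5.67% lower at that level. In addition limma voom on recovered fragments also called 0 members at the adjusted threshold. Log2 fold changes here are large minus small, and on this scale the changes of low genes are understated.

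The values of these members nonetheless leaned towards large follicles. Of the 33 members 26 had a log2 fold change above 0, where 39.9% of all genes tested did. With libraries scaled to a common sum these were 22 members and 28.6% of all genes, and with median-of-ratios scaling 28 members and 49.1%. The median log2 fold change of the members was 0.20, against -0.08 for all genes tested, with members ranging from -0.30 for SOX7 to 0.78 for PDPN. For 7 members every large library lay above every small library, where 10.9% of all genes tested did so, and no member had the opposite arrangement, where 15.2% of all genes did. These counts describe the list and were not tested as a set. The members were chosen with earlier results of these data known, so the counts cannot be taken as independent of those results. Of 36 other endothelial genes tested, given below, 18 were higher and 18 lower, with a median of -0.0008. Without small follicle replicate 2 the members' median was 0.42 and that of all genes 0.09, with 60% of all genes above 0. Without small follicle replicate 1 these were 0.05, -0.26 and 27.4%, and without large follicle replicate 2 they were 0.33, 0.02 and 52.2%. With large follicle replicate 2 and small follicle replicate 1 both left out, 25 members were above 0, the median was 0.20 and 0 members were called, where 390 of all genes were, an alternative chosen after the data were examined.

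**Figure D2:**
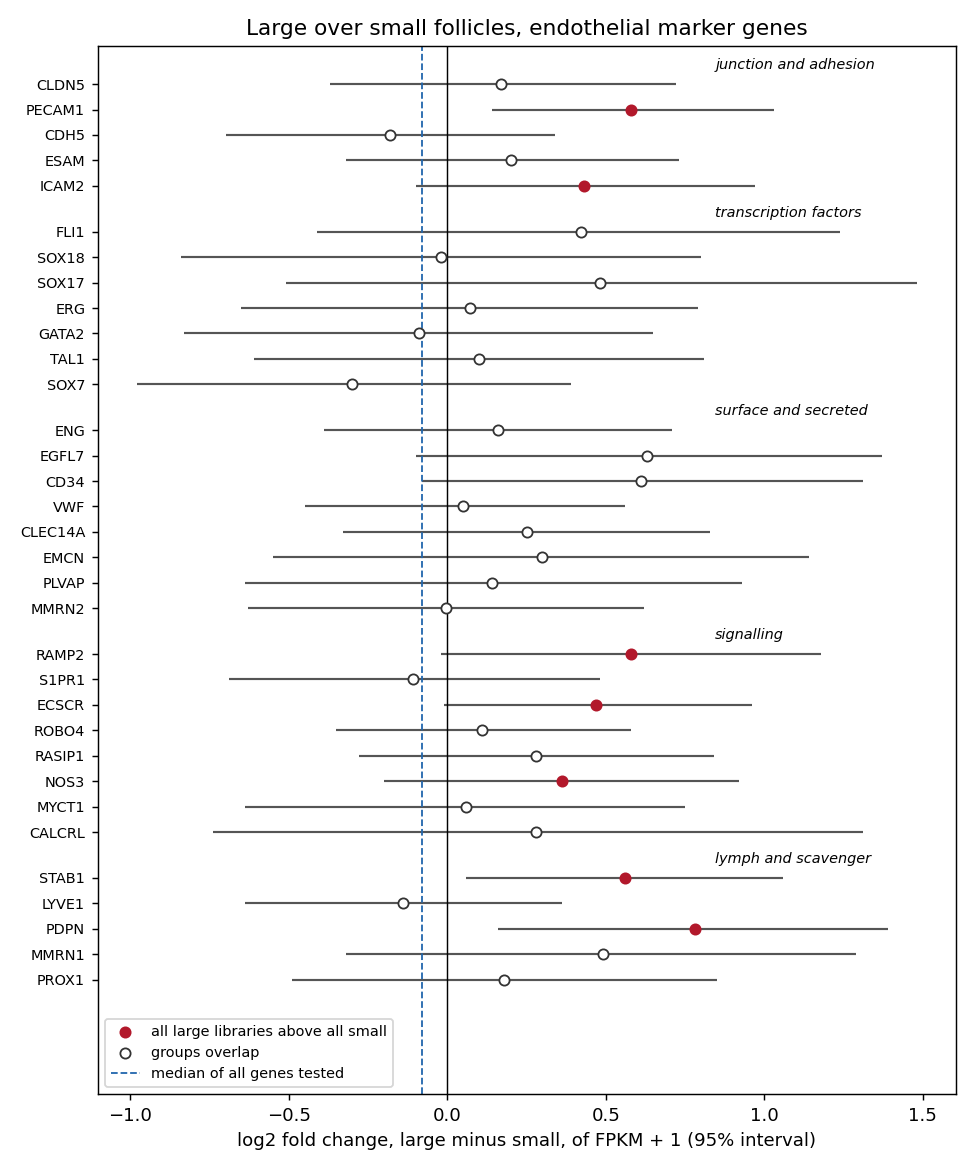
Log2 fold change of FPKM + 1, large minus small follicles, for the 33 endothelial genes by role; bars are 95% intervals from limma, filled red points are the 7 genes whose large libraries all lay above the small ones, and the dashed line is the median of all genes tested (-0.08). Most points lie right of the dashed line, and only the intervals of PECAM1, PDPN and STAB1 leave out 0.

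The precision of the comparison is given on the log2(FPKM + 1) scale. The standard errors of the members' log2 fold changes ran from 0.20 to 0.46. On that scale the 95% interval of 22 members lay within a 2-fold difference in either direction, and for the other 11 it reached 2-fold or more higher in large follicles. The interval of 0 members reached 2-fold lower, but for low genes these are not bounds on the fold of FPKM itself. SOX7, at 1.47 FPKM in large and 2.13 FPKM in small libraries, had a lower bound of 0.506-fold on this scale, and its ratio of mean FPKM was 0.689. VWF, a marker widely used for vessel counts, had an interval of FPKM + 1 from 0.73-fold to 1.47-fold, and ROBO4, the steadiest member, from 0.782-fold to 1.49-fold.

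Among junction and adhesion molecules, 4 of 5 had higher values and 1 a lower one, and 0 were called. PECAM1 (gene 396941, Sscrofa11.1 chromosome 12, 14667643 to 14723296), an adhesion molecule at endothelial contacts that leukocytes and platelets also carry, had 51.5, 52.8 and 57.2 FPKM in large follicle replicates 1 to 3, against 32.6 and 38.9 FPKM in small follicle replicates 1 and 2. The groups did not overlap, and the log2 fold change was 0.58 ± 0.20 (SE; limma adjusted p = 0.309). ICAM2 (gene 414387, chromosome 12, 14986636 to 14991639), which binds leukocyte integrins, had 13.05, 17.9 and 15.4 FPKM in large and 11.14 and 11.07 FPKM in small libraries, again without overlap (log2 fold change 0.43, SE 0.24, limma adjusted p = 0.611).

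CDH5, the cadherin of endothelial adherens junctions and the most specific member of this group, differed from PECAM1 in its pattern. It had 20.4, 27.3 and 27.5 FPKM in large libraries, against 25.4 and 31.5 FPKM in small libraries, so that its highest value was in a small and its lowest in a large library. Its log2 fold change was -0.18 ± 0.23 (SE; limma adjusted p = 0.879), with a 95% interval of the fold of FPKM + 1 from 0.616 to 1.26. The ratio of CDH5 to PECAM1 levels in FPKM was 0.396, 0.517 and 0.481 in large libraries and 0.778 and 0.810 in small libraries. CLDN5 had 104, 86.5 and 62.7 FPKM in large and 76.1 and 70.5 FPKM in small libraries, and ESAM, a junctional immunoglobulin-like molecule, had 24.6 ± 1.80 FPKM in large (SD, n = 3) and 21.6 ± 5.92 FPKM in small libraries (SD, n = 2). Both overlapped between the groups.

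The 7 transcription factors had the lowest median of the 5 role groups, at a log2 fold change of 0.07, with 4 higher, 3 lower and 0 called. ERG, an ETS factor close to specific for endothelium in adult tissue, had 6.32, 4.63 and 9.24 FPKM in large libraries and 5.42 and 6.99 FPKM in small libraries. The small libraries lay inside the range of the large ones, and the log2 fold change was 0.07 ± 0.32 (SE; limma adjusted p = 0.973). Its ETS relative FLI1, which blood cells also express, had 13.4, 7.35 and 15.8 FPKM in large and 6.14 and 11.6 FPKM in small libraries, which overlapped. Its level may include reads of LOC100516820 at 4.90 FPKM, which shares 2391 bases on the other strand. The log2 fold change of FLI1, 0.42, ran from 0.0048 without small follicle replicate 1 to 0.83 without small follicle replicate 2. TAL1 and GATA2, both shared with blood cell lineages, had log2 fold changes of 0.10 and -0.09.

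The 3 SOX factors of group F, which act redundantly in vessel growth in mice, had values on both sides of 0, and 0 were called. SOX17, of arterial endothelium, had 11.09, 3.49 and 8.46 FPKM in large libraries and 3.26 and 6.69 FPKM in small libraries. SOX18 had 12.3, 5.21 and 5.52 FPKM in large libraries and 8.08 and 6.48 FPKM in small libraries. SOX7 had 1.53, 1.19 and 1.68 FPKM in large libraries and 1.32 and 2.94 FPKM in small libraries. All overlapped, with log2 fold changes of 0.48, -0.02 and -0.30 in that order. That of SOX17 was 0.06 without small follicle replicate 1, 0.19 without large follicle replicate 1, 0.90 without large follicle replicate 2 and 0.91 without small follicle replicate 2. SOX18 lies within 1891 bases shared with TCEA2 on the other strand, a gene at 71.8 to 136 FPKM, and no source states whether counting used the strand, so the SOX18 level is uncertain.

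Of the 8 surface and secreted proteins, 7 had higher values, 1 a lower one and 0 were called. CD34 (gene 397160, chromosome 9, 134912793 to 134937763) had 111, 52.9 and 103 FPKM in large follicle replicates 1 to 3, against 51.1 and 59.4 FPKM in small follicle replicates 1 and 2. Replicates 1 and 3 of the large follicles were well above the small libraries and replicate 2 lay between them, giving a log2 fold change of 0.61 ± 0.31 (SE; limma adjusted p = 0.557). Without large follicle replicate 2 the CD34 log2 fold change was 0.95 and limma called it (adjusted p = 0.0474), the only call of a member in any alternative run, and over all alternatives the adjusted p of CD34 ran from 0.0474 to 1. EGFL7, which lies on an unplaced scaffold of the assembly and whose span holds MIR126 (listed at 0), had 154, 69.2 and 88.9 FPKM in large and 52.1 and 76.2 FPKM in small libraries, with overlap (log2 fold change 0.63, SE 0.33, limma adjusted p = 0.575). Without large follicle replicate 1, the highest library, its log2 fold change was 0.31, and without small follicle replicate 1 it was 0.36.

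The other surface and secreted proteins overlapped between the groups. VWF had 64.7, 83.9 and 65.3 FPKM in large and 79.8 and 58.3 FPKM in small libraries, a log2 fold change of 0.05 ± 0.23 (SE; limma adjusted p = 0.968). ENG had 110 ± 24.6 FPKM in large (SD, n = 3) and 98.3 ± 21.5 FPKM in small libraries (SD, n = 2). MMRN2, an extracellular matrix glycoprotein of vessels, had 4.52, 4.29 and 5.27 FPKM in large and 4.19 and 5.25 FPKM in small libraries, with a log2 fold change of -0.0039. CLEC14A, a C-type lectin of vessels, had a log2 fold change of 0.25 ± 0.26. EMCN, a sialomucin of capillaries and veins, had 15.8, 8.51 and 17.8 FPKM in large and 7.31 and 15.5 FPKM in small libraries, so that the spread within each group exceeded the difference between them. PLVAP, which forms the diaphragms of fenestrated capillaries, had 6.68, 10.2 and 4.11 FPKM in large and 5.97 and 5.83 FPKM in small libraries, the small ones inside the range of the large ones.

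The 8 measured signalling genes had 7 higher values, 1 lower one and 0 calls. For 3 of them every large library lay above every small one, where 10.9% of all genes tested did so. RAMP2 (gene 397155, chromosome 12, 20092204 to 20094426) had 240.1, 149.99 and 136 FPKM in large libraries, against 123 and 105 FPKM in small libraries (log2 fold change 0.58, SE 0.27, limma adjusted p = 0.503). Without large follicle replicate 1, which held the highest value, its log2 fold change was 0.33. ECSCR (gene 100522859, chromosome 2, 141343818 to 141352618), a surface regulator of endothelial chemotaxis and apoptosis, had 31.5, 27.5 and 24.5 FPKM in large and 20.6 and 18.7 FPKM in small libraries (log2 fold change 0.47, SE 0.22, limma adjusted p = 0.493). NOS3 (gene 397557, chromosome 18, 6209218 to 6228912), the endothelial nitric oxide synthase, had 8.70, 8.62 and 8.38 FPKM in large and 6.14 and 6.77 FPKM in small libraries (log2 fold change 0.36, SE 0.25, limma adjusted p = 0.717).

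CALCRL, the receptor that RAMP2 partners, was the most uneven member, with 4.84, 1.61 and 7.06 FPKM in large and 2.37 and 3.94 FPKM in small libraries. Its highest library was 4.39 times its lowest, where the median of that ratio over the members was 1.80 and ROBO4 had the lowest at 1.26. ROBO4, a guidance receptor that steadies vessels in mice, had 27.3, 24.6 and 23.9 FPKM in large and 21.8 and 24.9 FPKM in small libraries. S1PR1, the receptor for the lipid sphingosine-1-phosphate that lymphocytes also carry, had 35.6, 28.3 and 50.6 FPKM in large and 37.8 and 42.3 FPKM in small libraries (log2 fold change -0.11). RASIP1, a Ras-interacting protein needed for vessel lumens in mice, and MYCT1 had log2 fold changes of 0.28 and 0.06. TEK, the angiopoietin receptor also called TIE2, had 4.47, 3.36 and 6.60 FPKM in large and 3.04 and 4.08 FPKM in small libraries, with overlap (log2 fold change 0.32, SE 0.32, limma adjusted p = 0.838).

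Blood and lymph vessel markers both had medians above 0, and the difference between them was not tested. The 7 blood vessel markers (VWF, PLVAP, CD34, EMCN, SOX17, NOS3 and ENG) had a median log2 fold change of 0.30, with 7 higher, 0 lower and 0 called, although VWF turned to -0.07 with libraries scaled to a common sum and to -0.01 with quantile normalization. The 4 lymph vessel markers (PROX1, LYVE1, PDPN and MMRN1) had a median of 0.33, with 3 higher, 1 lower and 0 called. Without large follicle replicate 3 the blood median was 0.36 and the lymph median 0.14, and without small follicle replicate 1 they were 0.27 and 0.13. Over all single left-out libraries the blood median ran from 0.19 to 0.42 and the lymph median from 0.13 to 0.48. The replicate block gives the same 0.36 and 0.14 as leaving out large follicle replicate 3, by construction, since only large libraries have a replicate 3. Summed FPKM of the blood markers was 320.03, 306 and 299 in large and 267 and 236 in small libraries, and that of the lymph markers 49.8, 43.1 and 47.5 in large and 35.7 and 40.2 in small libraries. The ratio of the lymph to the blood sum was 0.156, 0.141 and 0.159 in large libraries and lay inside the small libraries' 0.134 and 0.171.

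The 4 lymph markers differed among themselves. PDPN (gene 100738269, chromosome 6, 73019063 to 73050000), a mucin-like protein of lymphatic endothelium that stromal and epithelial cells can also carry, had 14.7, 18.9 and 12.05 FPKM in large libraries, against 9.76 and 7.07 FPKM in small libraries. Its groups did not overlap, and its log2 fold change of 0.78 ± 0.27 (SE; limma adjusted p = 0.324) was the highest of the 33 members. PROX1, the most specific of the 4, had 1.43, 1.06 and 2.39 FPKM in large and 1.02 and 1.53 FPKM in small libraries, from 70 to 180 fragments per library, and its groups overlapped (log2 fold change 0.18, SE 0.30, limma adjusted p = 0.905).

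LYVE1, a hyaluronan receptor of lymphatic endothelium and some macrophages, had 20.7, 16.9 and 19.2 FPKM in large and 19.03 and 22.9 FPKM in small libraries. It lay on the lower side, at -0.14 ± 0.22 on the log2 scale (SE; limma adjusted p = 0.902), with a 95% interval of the fold of FPKM + 1 from 0.643 to 1.28. MMRN1, a multimeric protein of lymphatic endothelium and platelets, had 13.02, 6.19 and 13.8 FPKM in large and 5.88 and 8.69 FPKM in small libraries. Large replicates 1 and 3 were above both small libraries and replicate 2 lay between them (log2 fold change 0.49, SE 0.36, limma adjusted p = 0.741). Of 7 platelet genes found, 3 were tested and 0 called, and PPBP was at 0 in every library. ITGA2B, the highest of them, averaged 4.69 FPKM, against 9.52 FPKM for MMRN1, and ITGB3 and GP9 averaged 1.70 and 1.80 FPKM. The summed platelet level was 8.04 to 9.22 FPKM in large and 7.52 to 9.85 FPKM in small libraries, and its part in MMRN1 was not tested. Over single left-out libraries the log2 fold change ran from 0.24 to 0.82 for MMRN1 and from -0.27 to -0.01 for LYVE1.

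**Figure D3:**
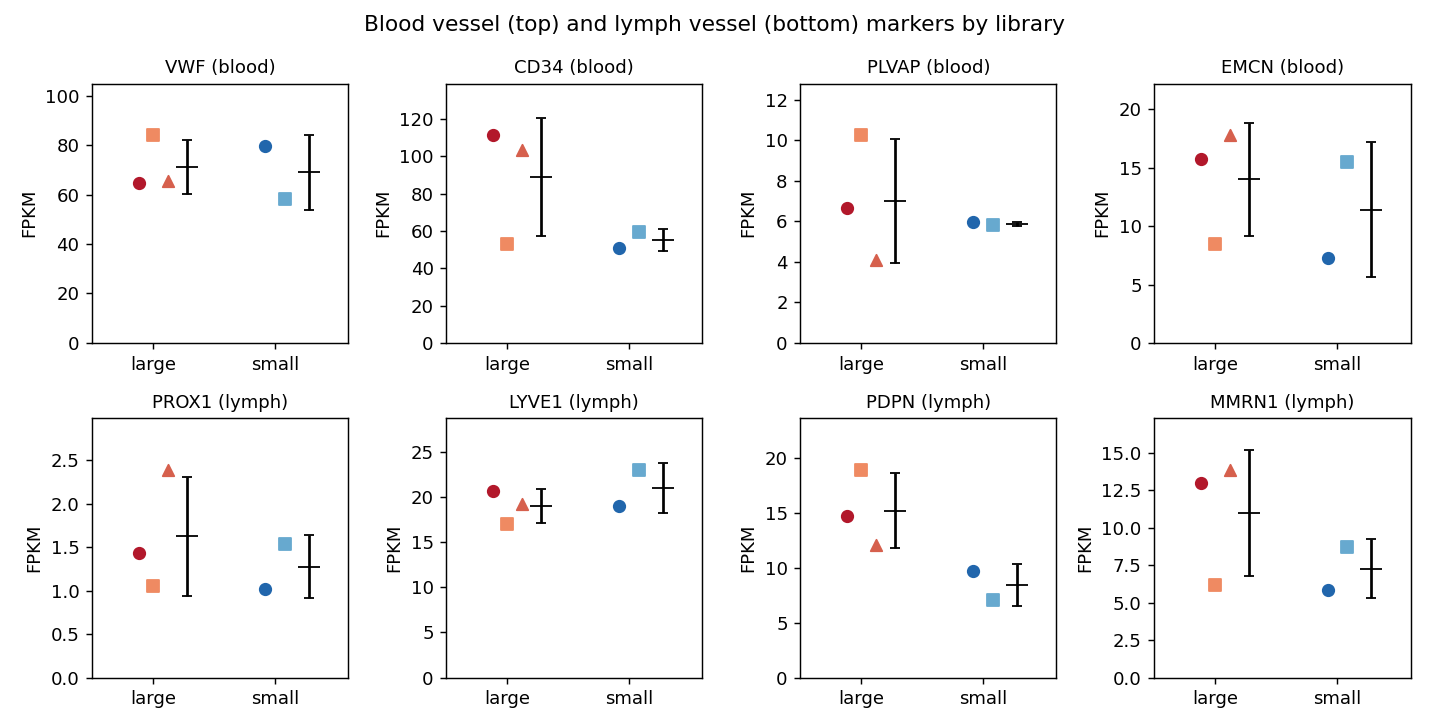
FPKM of 4 blood vessel markers (top) and 4 lymph vessel markers (bottom) in each library, large follicles left and small follicles right; black marks are group means with SD (n = 3 and n = 2), and axes start at 0. PDPN alone separates the groups in these 8 panels, and the small libraries of PLVAP lie inside the range of the large ones. Of the blood vessel markers not shown, NOS3 also separated the groups, and SOX17 and ENG overlapped.

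Of 6 further lymph vessel genes 5 were tested, with 4 higher values, 1 lower one and 0 calls. For 3 of the 5 the large libraries all lay above the small ones, where 10.9% of all genes tested did so. CCL21, the chemokine that draws dendritic and T cells into lymph vessels, had 1268, 1744 and 1205 FPKM in large libraries, against 720.2 and 433 FPKM in small libraries (log2 fold change 1.31, SE 0.31, limma adjusted p = 0.102). Its groups did not overlap, and its level was far above that of any lymph vessel member. FLT4, the receptor for the lymphatic growth factor VEGF-C, had 10.9, 12.8 and 12.4 FPKM in large and 7.91 and 7.93 FPKM in small libraries (log2 fold change 0.54, SE 0.24, limma adjusted p = 0.471). FOXC2, a factor of lymphatic valves, and ITGA9, an integrin needed for those valves in mice, had log2 fold changes of 0.25 and -0.17.

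STAB1 (gene 100525609, chromosome 13, 34630448 to 34659371), a scavenger receptor of sinusoidal and lymphatic endothelium and of macrophages, had 24.1, 23.3 and 24.9 FPKM in large libraries, against 13.9 and 18.5 FPKM in small libraries. The groups did not overlap and the log2 fold change was 0.56 ± 0.22 (SE; limma adjusted p = 0.404). Without small follicle replicate 1 it was 0.37. The ratio of STAB1 to PECAM1 levels was 0.436 to 0.467 in large and 0.426 to 0.475 in small libraries, so these genes kept nearly the same proportion in all libraries.

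Macrophage genes, which share STAB1, LYVE1, PECAM1 and FLI1 with endothelium, also leaned towards large follicles. Of 11 macrophage markers 9 had higher values and 2 lower ones, with 0 called, a median log2 fold change of 0.51, and summed levels of 383 to 540.2 FPKM in large and 374 to 418 FPKM in small libraries. None of the 11 was at 0. TYROBP, a signalling adaptor of myeloid cells, had 61.0, 97.5 and 61.0 FPKM in large and 37.6 and 24.4 FPKM in small libraries (log2 fold change 1.21, SE 0.28, limma adjusted p = 0.0920), and AIF1, a calcium-binding protein of macrophages, stood at 1.06 ± 0.28 on the log2 scale (SE; limma adjusted p = 0.146). The complement genes C1QA, C1QB and C1QC of tissue macrophages had -0.14, 0.13 and -0.01. Lymphocyte genes, relevant to S1PR1, had 6 of 7 tested values higher, 0 called and sums of 17.2 to 31.6 FPKM in large and 16.4 to 18.4 FPKM in small libraries. The part of macrophages or lymphocytes in the values of STAB1, PECAM1, LYVE1 and S1PR1 was not tested.

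Across libraries the endothelial genes fell into recurring patterns. For 19 of 33 members large follicle replicate 2 was the lowest large library and small follicle replicate 1 the lower small one, among them FLI1, ERG, SOX17, TAL1, EMCN, CD34, MMRN1, PROX1 and CALCRL. That share, 57.6%, was near the 55.8% of all genes tested. For 5 members, VWF, ENG, PLVAP, PDPN and ICAM2, both libraries were instead the higher ones, a share of 15.2% where 7.71% of all genes tested did so. The libraries with the highest member values were large follicle replicates 1 and 3, with 12 members each, while small follicle replicate 1 was highest for 0 and lowest for 16. Among all genes tested, small follicle replicate 2 was the highest library for 45.9%, but for the members it was highest only for 4, CDH5, SOX7, LYVE1 and GATA2.

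**Figure D4:**
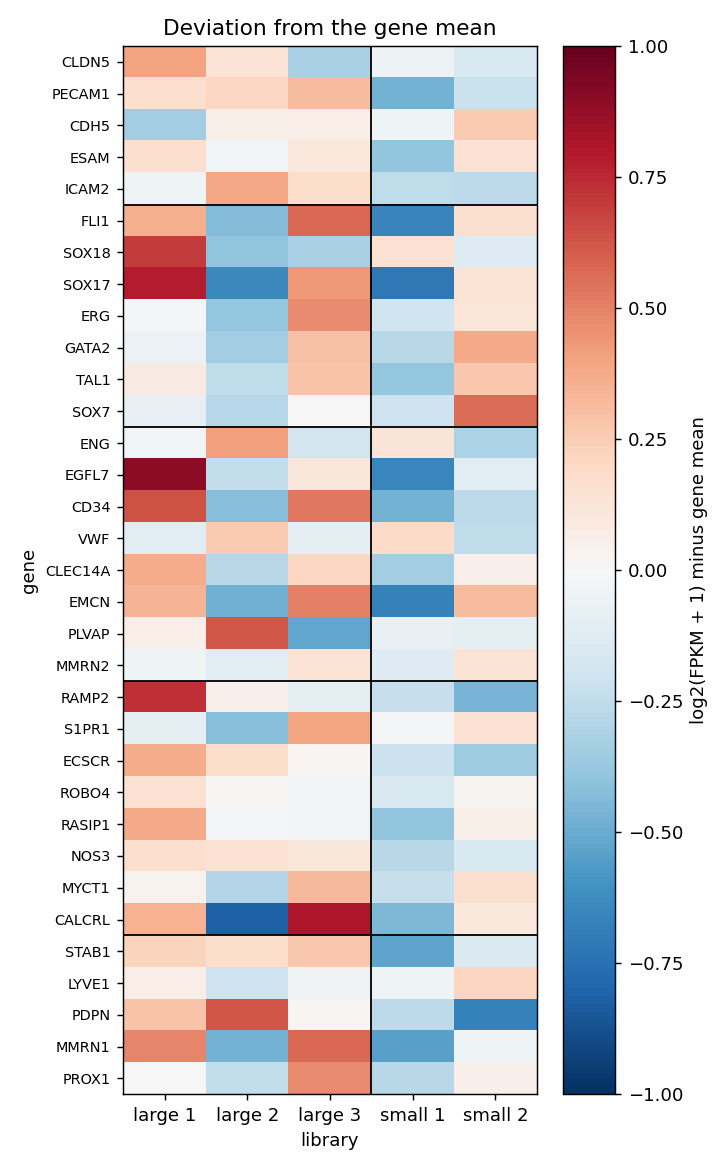
Deviation of log2(FPKM + 1) from the gene's mean over the 5 libraries (colour, red above and blue below), with the 33 endothelial genes as rows in role order and the libraries as columns, large left of small. Large follicle replicate 2 and small follicle replicate 1 are blue in the rows of FLI1, SOX17, EMCN and CD34 and red in those of ENG and VWF.

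Beyond the members, a list of 37 other endothelial genes held the only calls of endothelial genes. Of 36 tested, 18 had higher values and 18 lower ones, the median log2 fold change was -0.0008, and 2 were called higher and 0 lower. AQP1, a water channel of capillaries that red blood cells also carry, had 81.7, 85.5 and 83.0 FPKM in large libraries, against 36.2 and 40.5 FPKM in small libraries (log2 fold change 1.10, SE 0.19, limma adjusted p = 0.0316). CA4, a carbonic anhydrase on the surface of capillaries, had 35.4, 23.1 and 23.0 FPKM in large libraries, against 9.40 and 9.70 FPKM in small libraries (log2 fold change 1.39, SE 0.26, limma adjusted p = 0.0406). For both genes the groups did not overlap, and both log2 fold changes were larger than that of any of the 33 members. Of all genes tested, limma called 0.535% higher and 0.443% lower. The list was chosen with earlier results of these data known, so the calls of AQP1 and CA4 cannot be taken as independent of those results.

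Both calls depended on the setting, while the size of the differences moved little. Over single left-out libraries the log2 fold change ran from 1.02 to 1.18 for AQP1 and from 1.19 to 1.49 for CA4. Over all alternatives the limma adjusted p ran from 0.0201 to 0.198 for AQP1 and from 0.00946 to 0.179 for CA4, and both calls were lost when large follicle replicate 1 or either small follicle library was left out. With the replicate block limma gave adjusted p = 0.109 for AQP1 and 0.0440 for CA4. Red blood cell genes also had higher values in large follicles: 3 of 4 tested had higher values, 0 were called, and the summed level of the 7 found was 1005 to 1676 FPKM in large and 234 to 702 FPKM in small libraries, led by the globin HBB, with none at 0 in every library. Their part in AQP1 was not tested.

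Other endothelial genes with smaller p-values went in both directions. GJA4, a connexin of arterial endothelium and other cells, had 22.7, 18.3 and 17.04 FPKM in large and 10.7 and 11.9 FPKM in small libraries (log2 fold change 0.72, SE 0.23, limma adjusted p = 0.274), without overlap. EFNB2, an ephrin of arterial endothelium and other cells, lay on the other side with 0.0867, 1.498 and 2.48 FPKM in large and 6.60 and 10.4 FPKM in small libraries. These levels rested on 1, 15 and 26 fragments in the large libraries, against 63 and 105 fragments in the small ones. The difference was -2.14 ± 0.47 on the log2 scale (limma adjusted p = 0.0765). Limma called EFNB2 with a pseudocount of 5, under common-sum scaling and with the replicate block. It also did so when large follicle replicate 2 or 3 was left out, and when large follicle replicate 2 and small follicle replicate 1 both were. KDR and FLT1, receptors of vascular endothelial growth factor, had log2 fold changes of -0.12 and -0.01.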

How the data were processed

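The deposited files give FPKM values per gene, which the authors computed for each library; per the file headers they carry NCBI gene identifiers, symbols and coordinates. TRIzol extraction and a stranded paired-end mRNA library kit were used, per the labels' protocols. Without role or order, featureCounts 1.5.0-p3, StringTie 1.3.3, HISAT2 2.0.5, Trimmomatic 0.38, FastQC 0.11.4 and the build Sscrofa11.1 are listed, per the submitters' processing notes; no source states strand use in counting. Groups and replicate numbers come from the sample titles.

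Chromosome numbers were taken from a RefSeq gene table of Sscrofa11.1, to which 30335 identifiers matched. Library totals were worked back from the FPKM steps; 49.5% of the 23353 genes above 0 gave whole fragments, within 0.001, at the listed length, and 11791 at a shorter length found by search, including 15 of the members. The search took the shortest length at which every library gave whole fragments, so counts from a searched length are the fewest that fit. Sums of all recovered fragments reached 99.5% to 99.6% of the totals.

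The comparison used limma 3.58.1 in R 4.3.3 on log2(FPKM + 1) with a mean-variance trend and group as the only term, on genes at 1 FPKM or more in at least 2 libraries, with Benjamini-Hochberg adjustment over all 13087. The fit was also run on simulated data whose planted changes all exceeded the largest change of a member. That run does not show how often differences of the members' size would be found. Named genes are every member and, from other lists, up to 4 tested genes with the smallest p and defining markers at 0. No gene is named from the lymphocyte and surface epithelium lists, where 0 were called. Of 4 mast cell genes tested, HDC was called higher and GATA1 lower, where 0.978% of all genes tested were called, and CPA3 was at 0. INHA was named for its size in the granulosa sum after its values were seen. KDR, FLT1, TEK, the C1Q genes, PDGFRB, ACTA2, TAGLN, CNN1 and DES were added for their known roles after their values were seen. Members and lists were chosen with earlier results of these data known. Alternatives were pseudocounts of 0.1 and 5, dropping the filter or asking for a mean of 5 FPKM, 3 scalings, a replicate block, no variance trend, voom, and each library left out. Tables and figures were made with Python 3.11.15.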

Additional observations from a re-analysis of the deposited data

How the results depend on the processing

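No member was called under any alternative except CD34 without large follicle replicate 2, so the count of called members ran from 0 to 1 over the single left-out libraries. Of 521 member values under an alternative 474 kept their sign, and 17 of the 33 members kept it throughout, PECAM1, PDPN, STAB1, RAMP2, ECSCR, ICAM2, NOS3 and CD34 among them. Changing the filter or dropping the variance trend cannot move a member's log2 fold change, so those values kept their sign by construction. The replicate block repeats the log2 fold changes found without large follicle replicate 3. Members whose sign turned had log2 fold changes of at most 0.30 in size. The members' median minus the median of all genes was 0.29, and between 0.22 and 0.36 under every alternative; the median of all genes itself was -0.08, and -0.19 under common-sum scaling. Over the single left-out libraries the members' median ran from 0.05 to 0.42 and the lymph median from 0.13 to 0.48. The cause of these differences was not tested.

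The same replicate numbers gave correlations of the deviations of -0.00 and -0.45, so they were not treated as pairs. Only large libraries have a replicate 3, so a replicate block gives the same log2 fold changes as leaving out large follicle replicate 3. With a replicate block 0 members were called, 22 were above 0, 157 of all genes were called, and the lymph median was 0.14. With that block log2 fold changes were -0.02 for PROX1 and TAL1, -0.06 for CALCRL, -0.10 for MYCT1, -0.16 for ERG and 0.14 for SOX18.

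Calls among the other endothelial genes numbered 2, but 0 with no filter, without a variance trend and with voom, 1 at a mean FPKM of 5 or more (AQP1), with median-of-ratios scaling (CA4) or with common-sum scaling (EFNB2), and 0 to 3 over the left-out libraries. With a pseudocount of 5 the 2 were AQP1 and EFNB2, and with the replicate block CA4 and EFNB2. Under common-sum scaling log2 fold changes were -0.01 for ROBO4, -0.04 for ERG, -0.05 for MYCT1 and -0.07 for VWF. With median-of-ratios scaling they were 0.06 for SOX18 and 0.07 for MMRN2, with quantile normalization -0.01 for VWF, 0.05 for GATA2, 0.09 for SOX18 and 0.12 for MMRN2, and with a pseudocount of 5 SOX18 had 0.0042. With large follicle replicate 2 and small follicle replicate 1 both left out they were -0.01 for ESAM, -0.08 for TAL1, -0.12 for PLVAP, 0.0040 for S1PR1 and 0.31 for SOX18.

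Over the single left-out libraries log2 fold changes ran from -0.17 to 0.27 for VWF, -0.07 to 0.47 for ESAM, -0.20 to 0.79 for EMCN, -0.16 to 0.27 for ERG, -0.68 to 0.08 for SOX7, -0.37 to 0.18 for SOX18, -0.06 to 0.38 for ENG, -0.14 to 0.13 for MMRN2, -0.14 to 0.43 for PLVAP, -0.23 to 0.43 for TAL1, -0.02 to 0.35 for PROX1, -0.33 to 0.08 for S1PR1, -0.06 to 0.75 for CALCRL, -0.42 to 0.24 for GATA2 and -0.14 to 0.25 for MYCT1. Without a turn in sign they ran from 0.05 to 0.50 for RASIP1, 0.05 to 0.45 for CLEC14A, 0.01 to 0.37 for CLDN5, 0.02 to 0.21 for ROBO4 and -0.33 to -0.03 for CDH5. All genes called numbered 128, and 29, 268 and 222 without large follicle replicates 1, 2 and 3, 78 and 60 without small follicle replicates 1 and 2, 32 with no filter, 41 at a mean FPKM of 5 or more, 210 and 201 with median-of-ratios scaling and quantile normalization, 70 with voom, and 390 with large follicle replicate 2 and small follicle replicate 1 both left out. Where a left-out library leaves 1 small library, that library is assumed to vary like the large ones.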

Other observations

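Mural cells, the pericytes and smooth muscle that wrap vessels, were measured beside the endothelium. Of 12 tested mural markers 7 had higher values in large follicles and 5 lower ones, and the median log2 fold change was 0.25. Limma called 0, and at an unadjusted p under 0.05 it gave 1 higher and 3 lower. Of all genes tested 4.76% were higher and 5.67% lower at that level. Members of this list went apart. MYH11, the smooth muscle myosin, had 100.4, 166 and 172 FPKM in large libraries, against 247 and 239 FPKM in small libraries (log2 fold change -0.77, SE 0.26, limma adjusted p = 0.309), without overlap. The smooth muscle genes ACTA2, TAGLN and CNN1 were instead higher without overlap, at log2 fold changes of 0.40, 0.50 and 0.38. Their limma adjusted p-values were 0.742, 0.611 and 0.635. DES, which overlapped, had a log2 fold change of 0.25, so smooth muscle genes went in both directions. RGS5, a regulator of G protein signalling in pericytes, had 20.1, 14.5 and 28.5 FPKM in large and 26.6 and 49.7 FPKM in small libraries, and the pericyte receptor NOTCH3 had 11.6 ± 1.93 FPKM in large (SD, n = 3) and 17.5 ± 0.374 FPKM in small libraries (SD, n = 2). HIGD1B, a mitochondrial protein of pericytes, lay on the other side with 4.61, 3.58 and 4.08 FPKM in large and 2.54 and 1.95 FPKM in small libraries. PDGFRB, the platelet-derived growth factor receptor of pericytes and stroma, had a log2 fold change of -0.02 ± 0.23. Like ACTA2, TAGLN, CNN1 and DES, it was named after its values were seen.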
